A study of Mus musculus with 6 samples.

Results

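Non-muscle actin and focal adhesion genes were followed as a set of 47 genes, chosen by symbol from the 23224 rows of the count table. The set held 2 actin isoforms, 15 actomyosin and stress fibre genes, 9 focal adhesion genes, 7 genes for LIM and PDZ-LIM proteins, 4 branched actin genes, 6 genes for actin turnover and filament tips, 3 linkers of the ERM family and the transcription factor gene Srf. Mouse lung alveolar organoid cells with the genotype Sftpc-eGFP were cultured for 7 days and then dissociated with TrypLE. The 2D FBS cultures were flat and received Ad-DMEM F/12 containing 10% FBS (fetal bovine serum). The 2D FNHCS cultures were also flat but kept the medium named FNHCS. In 3D FNHCS, the control, they stayed in drops of 90% matrigel with FNHCS medium, in which all cells had been kept before. Every condition was sequenced once in line SN3593 and once in line SN3595, as polyA RNA-seq. In their titles the 2D FBS samples carry typI, the 2D FNHCS samples AT2_AT1 and the 3D FNHCS samples typII, for the surfactant-making type 2 and the flat gas-exchange type 1 cells of the alveolus. The design text speaks of cells with and without eGFP, but no source used here states whether these samples were sorted. The medium and the serum changed together between 2D FBS and 2D FNHCS and cannot be told apart, and no source used here gives the ages of the mice.

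Actin filaments in cells that are not muscle are built from the beta and gamma isoforms. Tropomyosins, alpha-actinins, filamins and non-muscle myosin II bundle them into contractile stress fibres, which end at focal adhesions, the plaques of talin, vinculin and zyxin that tie filaments to integrins. The Arp2/3 complex instead starts branched filaments, which push the membrane at the cell edge. SRF is a transcription factor that binds a short DNA element, the CArG box, and its MRTF coactivators are held back by free actin monomers, so that many actin and adhesion genes are known targets in mouse cells. In the alveolus, type 1 cells are thin and spread, while type 2 cells are cuboidal.

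Total expected counts per library ran from 33634368 to 43334665, and 14416 genes passed the filter on low counts and were tested. All 47 genes passed, Enah only through the 2D FBS libraries, which held 46 and 16 counts of it. Levels are given as CPM, counts scaled to a common library total by TMM, for SN3593 first and SN3595 second. A gene was called higher or lower where edgeR's quasi-likelihood test gave an adjusted p below 0.05 over all genes tested. The labelled cell types were checked on summed markers. The 10 AT2 markers summed to 901 and 1319 CPM in 2D FBS, 55213 and 46445 CPM in 2D FNHCS and 51596 and 70407 CPM in 3D FNHCS. In the FNHCS libraries most of that sum was Sftpc, and the other 9 AT2 markers summed to 462 and 1054 CPM in 2D FBS, 3778 and 5458 CPM in 2D FNHCS and 18094 and 29393 CPM in 3D FNHCS. Of the 10 AT2 markers, 6 were called lower in 2D FNHCS against 3D FNHCS, among them Sftpb (log2 fold change -2.62) and Lamp3 (-2.71). Also called lower were 6 in 2D FBS against 2D FNHCS and all 10 in 2D FBS against 3D FNHCS. Of all tested genes, 9.77%, 4.77% and 20.5% were called lower in the same order. The 10 AT1 markers summed to 16004 and 22106 CPM in 2D FBS, 5268 and 13436 CPM in 2D FNHCS and 3367 and 2968 CPM in 3D FNHCS. Of these, only Ager and Clic5 were called higher in 2D FNHCS against 3D FNHCS, and none was called between 2D FBS and 2D FNHCS. In 2D FBS against 3D FNHCS, Ager, Rtkn2, Clic5, Cav1, Akap5, Emp2 and Vegfa were called higher. Hopx, Aqp5 and Pdpn were not called there. The shares of all tested genes called higher were 8.63%, 5.85% and 19.9% in the same order. From 3D FNHCS to 2D FNHCS, Hopx, Aqp5, Cav1 and Vegfa fell in SN3593 and rose in SN3595. The part of these cell type markers in the results on actin genes was not tested, and in bulk RNA fewer cells of a type cannot be told apart from less RNA per cell.

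The 47 genes together took 5.62% and 4.72% of all counts in 2D FBS, 2.09% and 2.82% in 2D FNHCS, against 1.31% and 1.47% in 3D FNHCS. Their share was thus highest in both serum libraries and lowest in both matrigel libraries, with no overlap between conditions. In 2D FBS against 3D FNHCS, 41 of the 47 were called higher and 1, Capg, lower, against 40.5% of all tested genes called in either direction, 19.9% higher and 20.5% lower. Leaving out Enah, whose passing of the filter required it to differ, 40 of 46 were called higher. In 2D FBS against 2D FNHCS, where both cultures are flat and the media differ, 20 were called higher and 0 lower, against 10.6% of all genes, 5.85% higher and 4.77% lower. In 2D FNHCS against 3D FNHCS, where the medium is the same, 15 were called higher and Capg lower, against 18.4% of all genes, 8.63% higher and 9.77% lower. The 2 last comparisons are called below the step between the media and the step between flat and matrigel culture, and a positive value means a higher level in 2D FBS in the first and in 2D FNHCS in the second. Counted at an unadjusted p below 0.05, the numbers were 43, 33 and 28 genes in the same order of comparisons, against 50.5%, 29.5% and 36.0% of all tested genes. Of the 33, 3 were lower, and DESeq2 and limma-voom called 0 lower between the media as well. The 3 comparisons share libraries, so their values are given side by side and are not separate evidence.

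The median log2 fold change of the 47 genes was 1.72 in 2D FBS against 3D FNHCS, beside -0.03 over all tested genes. It was 1.10 in 2D FBS against 2D FNHCS, beside -0.06, and 0.82 in 2D FNHCS against 3D FNHCS, beside 0.03. Scaling by library size instead moved the median of all genes to -0.14, -0.33 and 0.19 and scaling by the upper quartile moved it to -0.19, -0.19 and -0.00, while the 47 genes stayed 1.75, 1.18 and 0.77 above it by the library size and 1.74, 1.19 and 0.77 above it by the upper quartile. With the cell line as a block, 42 genes were called higher in 2D FBS against 3D FNHCS, 25 in 2D FBS against 2D FNHCS and 19 in 2D FNHCS against 3D FNHCS, with backgrounds of 24.4%, 10.3% and 14.2% called higher. The first 2 of these counts are 41 and 24 without Enah. The same fits called 1, 0 and 1 lower, with backgrounds of 25.0%, 8.41% and 14.8%. All libraries of the first-named condition lay above those of the second for 43 genes in 2D FBS against 3D FNHCS (36.3% of all genes), 34 in 2D FBS against 2D FNHCS (28.8%) and 34 in 2D FNHCS against 3D FNHCS (30.8%). These calls rested on few libraries. Between the media, 1 gene was called higher without the 2D FBS library of SN3593 (0.301% of all genes called higher) and 10 without that of SN3595 (2.02%), 3 without the 2D FNHCS library of SN3593 (1.55%) and 13 without either 3D FNHCS library (3.26% without SN3593 and 3.23% without SN3595). Between flat and matrigel culture, 4 were called higher without the 2D FNHCS library of SN3595 (3.76%) and 3 without either 3D FNHCS library (1.26% without SN3593 and 1.92% without SN3595). Without the 3D FNHCS library of SN3593, 25 were called higher in 2D FBS against 3D FNHCS (9.11%). Called in every fit that left out 1 library were 24 of the 41 higher genes and Capg in 2D FBS against 3D FNHCS, 0 of the 20 between the media, and Myh10, Tln2 and Gsn of the 15 between flat and matrigel culture.

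**Figure D1:**
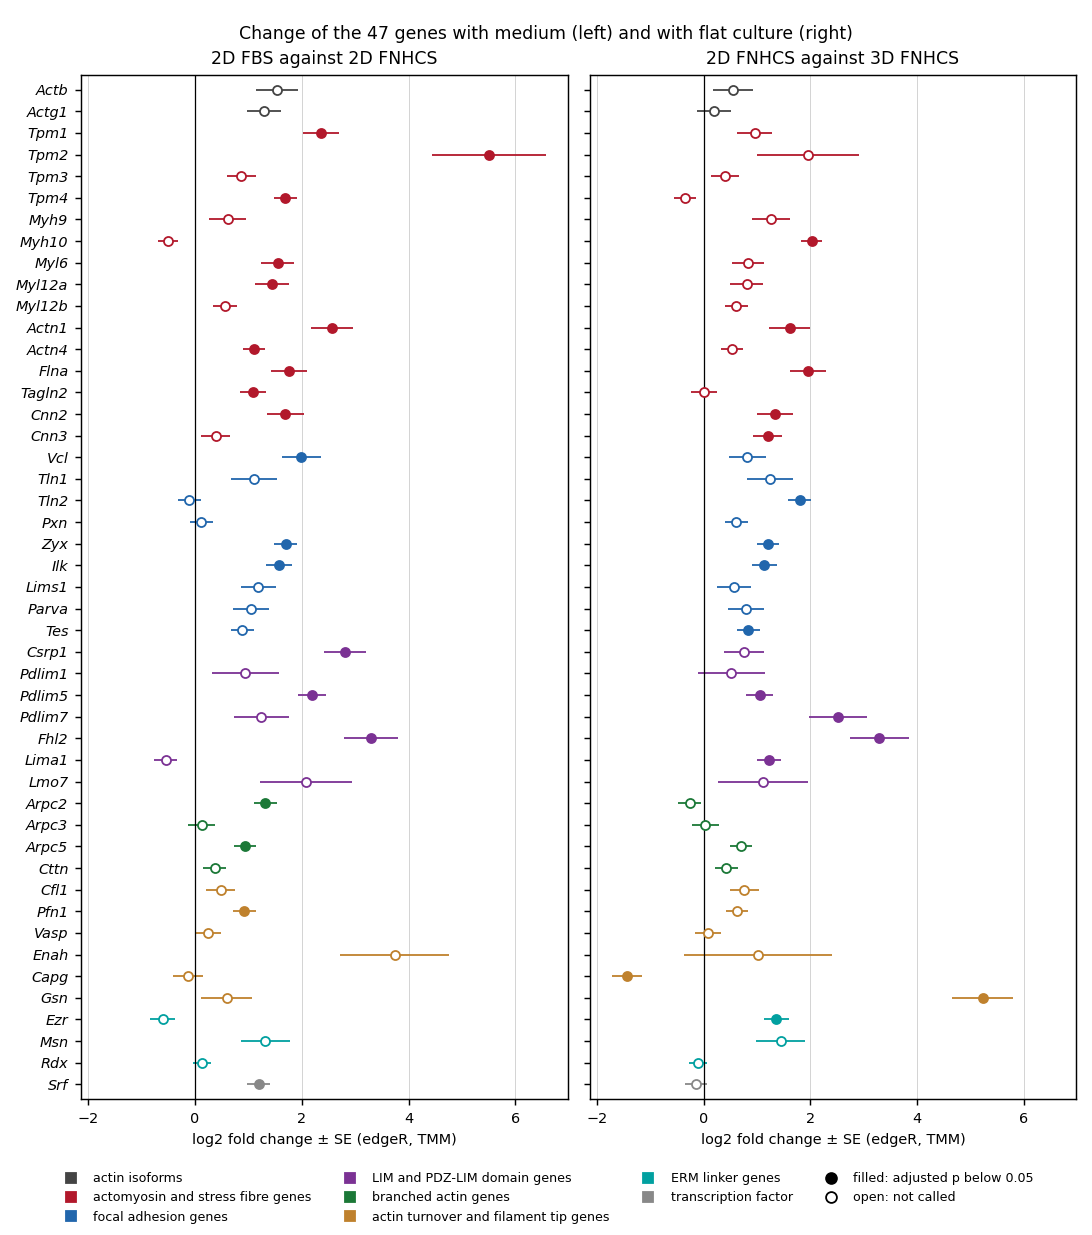
Log2 fold change with its standard error (x axis) for each of the 47 genes (y axis), coloured by role, in 2D FBS against 2D FNHCS on the left and in 2D FNHCS against 3D FNHCS on the right. Filled points were called by edgeR; 20 are filled on the left, all above 0, and 16 on the right, with Capg below 0.

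By their mean level, 38 of the 47 genes stood highest in 2D FBS, next in 2D FNHCS and lowest in 3D FNHCS. For 25 of them no library of one condition reached into the next, against 12.0% of all tested genes. Myh10, Tln2, Lima1 and Ezr were instead highest in 2D FNHCS and lowest in 3D FNHCS, without overlap. Tpm4, Arpc2, Rdx and Srf were highest in 2D FBS and lowest in 2D FNHCS, although the 2D FNHCS to 3D FNHCS difference of Rdx and Srf changed sign by library size scaling (0.06 and 0.02), and Capg alone was highest in 3D FNHCS. Seen by their calls, 7 genes rose in all 3 comparisons: Actn1, Flna, Cnn2, Zyx, Ilk, Pdlim5 and Fhl2. A further 13 rose in 2D FBS against both other conditions but were not called between 2D FNHCS and 3D FNHCS, and 7 rose in both flat conditions against 3D FNHCS but were not called between the media. Another 14, Enah among them, were called in 2D FBS against 3D FNHCS but in neither step, Lima1 in 2D FNHCS against 3D FNHCS alone, and Pdlim1, Arpc3, Vasp and Rdx in none.

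The median change of each role group is given as a description, with no test. Between the media, the median log2 fold change was 2.08 for the LIM and PDZ-LIM genes, 1.45 for the stress fibre genes, 1.10 for the focal adhesion genes, 0.65 for the branched actin genes, 0.54 for the turnover and tip genes and 0.13 for the ERM linkers. Between flat and matrigel culture it was 1.11 for the LIM and PDZ-LIM genes, 0.96 for the stress fibre genes, 0.83 for the focal adhesion genes, 0.23 for the branched actin genes, 0.70 for the turnover and tip genes and 1.36 for the ERM linkers. The branched actin median was the lowest of the 6 groups between 2D FNHCS and 3D FNHCS, and the ERM median the lowest between the media. Set against 3D FNHCS, 2D FBS had medians of 3.24, 1.88 and 1.85 for the LIM, stress fibre and focal adhesion groups, and 1.40, 0.93 and 0.75 for the turnover, branched actin and ERM groups. The smaller groups hold 3 to 7 genes, so 1 gene can move their median.

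**Figure D2:**
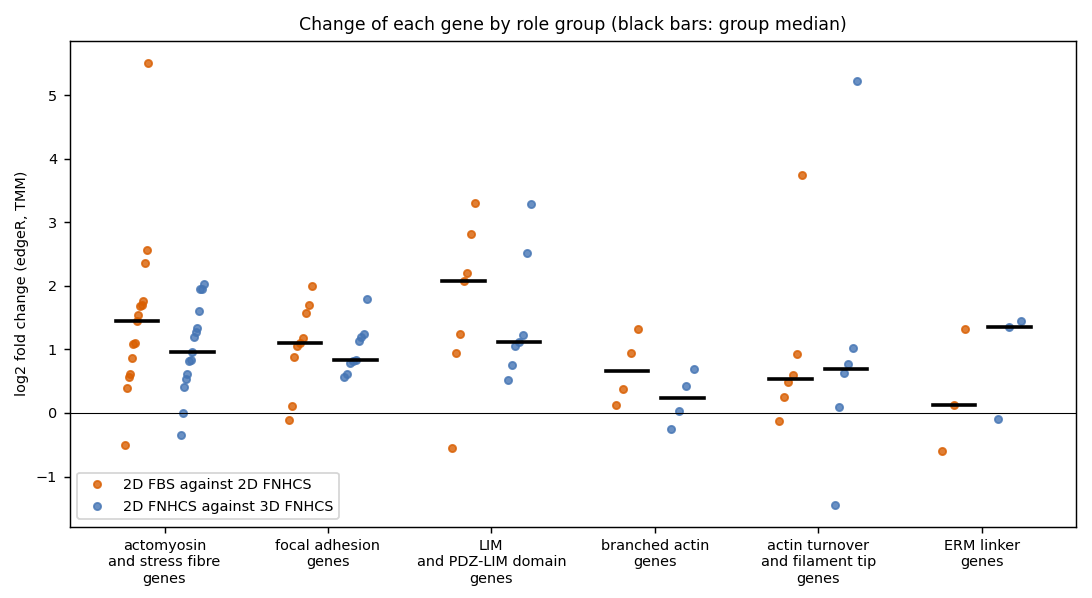
Log2 fold change (y axis) of each gene in the 6 role groups of 3 or more genes (x axis), with 2D FBS against 2D FNHCS in orange and 2D FNHCS against 3D FNHCS in blue, and the group median as a black bar. The medians of the branched actin genes are 0.65 and 0.23, against 1.45 and 0.96 for the stress fibre genes.

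Srf encodes the serum response factor itself. Its level was 82.0 and 57.3 CPM in 2D FBS, 29.7 and 31.4 CPM in 2D FNHCS and 32.2 and 35.1 CPM in 3D FNHCS. Both 2D FBS libraries lay above the other 4, which differed little. Srf rose in 2D FBS against 2D FNHCS, with an edgeR log2 fold change of 1.19 ± 0.21 (SE, adjusted p = 0.0245), and in 2D FBS against 3D FNHCS by 1.05 ± 0.21 (SE, adjusted p = 0.0103). Between 2D FNHCS and 3D FNHCS the difference was -0.14 ± 0.21 (SE, adjusted p = 0.662), and it was 0.02 when scaled by library size. Promoter windows from RefSeq (GRCm38.p6, 250 bases before to 50 bases after a gene's start) were searched for the CArG box, spelled as CC, then 6 letters that are each A or T, then GG. This pattern covers both strands at once, since its reverse complement has the same form. It was in a window of 7 of the 42 genes of the set with an entry (16.7%), against 172 of 10198 tested genes with an entry (1.69%). The 7 were Srf, Actg1, Myl6, Cnn2, Vcl, Fhl2 and Lima1. The box and the bases around it are shown because it is the element that SRF is known to read, with each box in capitals. They are read 5′ to 3′ on the gene's strand, and positions count back from the start of the transcript.
Srf chr17:46556210-46556269 (minus strand, box from 82 bases before the start): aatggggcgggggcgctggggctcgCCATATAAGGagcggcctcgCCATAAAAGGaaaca
Actg1 chr11:120348551-120348610 (minus strand, box from 90 bases before the start): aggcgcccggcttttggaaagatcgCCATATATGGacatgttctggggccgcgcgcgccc
Myl6 chr10:128493025-128493084 (minus strand, box from 50 bases before the start): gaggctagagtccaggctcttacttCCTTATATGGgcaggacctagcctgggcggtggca
Cnn2 chr10:79988519-79988578 (plus strand, box from 56 bases before the start): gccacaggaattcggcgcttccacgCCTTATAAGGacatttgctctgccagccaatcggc
Vcl chr14:20929148-20929205 (plus strand, box from 227 bases before the start): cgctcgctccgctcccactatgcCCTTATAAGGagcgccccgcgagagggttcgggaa
Fhl2 chr1:43163958-43164017 (minus strand, box from 31 bases before the start): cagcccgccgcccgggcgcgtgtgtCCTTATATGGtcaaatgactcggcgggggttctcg
Lima1 chr15:99820162-99820221 (minus strand, box from 47 bases before the start): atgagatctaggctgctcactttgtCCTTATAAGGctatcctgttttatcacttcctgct
The Srf stretch holds 2 boxes. The Actg1 box shown has CCATATATGG, the Myl6 and Fhl2 boxes shown CCTTATATGG, and the Cnn2, Vcl and Lima1 boxes shown CCTTATAAGG. The window of another annotated start of Fhl2 holds a different box, from 96 bases before that start, in the stretch shown next.
Fhl2, other start, chr1:43196823-43196882 (minus strand): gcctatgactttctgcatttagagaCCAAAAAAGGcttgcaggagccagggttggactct
The 2 Fhl2 boxes thus differ in their inner letters. A match is a description of these letters and was not tested for binding. All 7 genes but Lima1 were called higher in 2D FBS against 3D FNHCS, and Srf, Myl6, Cnn2, Vcl and Fhl2 in 2D FBS against 2D FNHCS. Over the whole set of 47, 41 and 20 were called higher in these comparisons, against 19.9% and 5.85% of all tested genes. Whether the genes with a box differ from the rest of the set was not tested.

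Actb and Actg1 encode beta and gamma actin, the 2 non-muscle isoforms. Actb stood at 16728 and 13875 CPM in 2D FBS, 4032 and 6535 CPM in 2D FNHCS and 2964 and 4242 CPM in 3D FNHCS. Actg1 stood at 5683 and 5327 CPM in 2D FBS, 1760.3 and 2726 CPM in 2D FNHCS and 1739 and 2180.3 CPM in 3D FNHCS. For both, each 2D FBS library lay above all 4 FNHCS libraries, and the 2D FNHCS and 3D FNHCS libraries overlapped. Both rose in 2D FBS against 3D FNHCS, Actb by 2.09 ± 0.39 (SE, adjusted p = 0.00884) and Actg1 by 1.49 ± 0.32 (SE, adjusted p = 0.0134) on the log2 scale. Between the media the edgeR values were 1.53 ± 0.39 (SE, adjusted p = 0.0579) for Actb and 1.295 ± 0.32 (SE, adjusted p = 0.0543) for Actg1, so neither was called, while Actg1 was called with the line as a block (adjusted p = 0.0443). Between flat and matrigel culture they were 0.55 ± 0.38 (SE, adjusted p = 0.342) and 0.19 ± 0.31 (SE, adjusted p = 0.687). The ratio of Actb to Actg1 counts, which is not adjusted for length, was 2.94 and 2.60 in 2D FBS, 2.29 and 2.40 in 2D FNHCS, against 1.70 and 1.95 in 3D FNHCS, without overlap between conditions. Of the stretches of 50 bases in their annotated mouse transcripts (GENCODE vM21), 12.2% of those of Actb and 45.6% of those of Actg1 also occur in another gene, mostly pseudogenes in the case of Actg1, so the split of reads among them is uncertain.

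**Figure D3:**
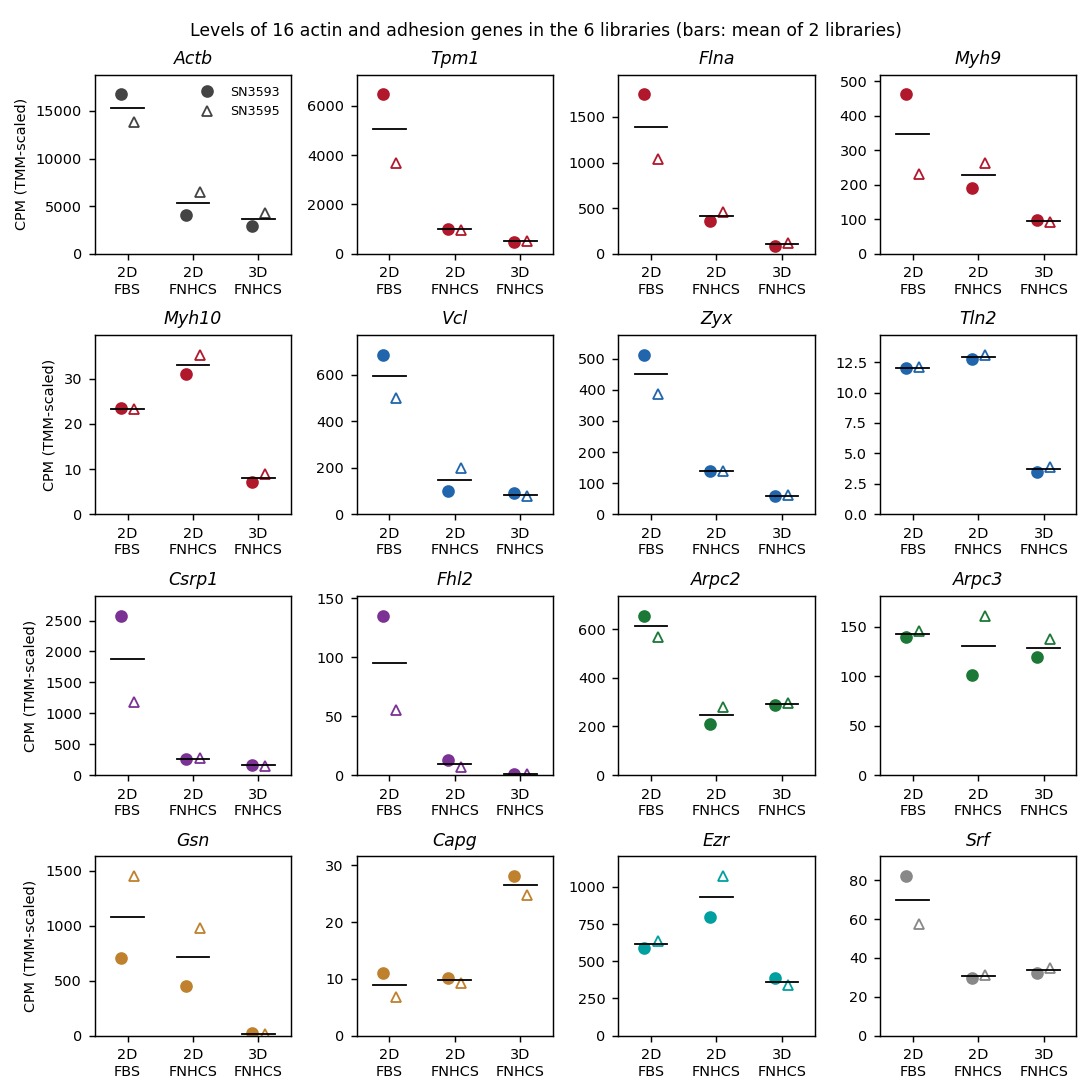
CPM after TMM scaling (y axis, from 0) of 16 of the 47 genes in 2D FBS, 2D FNHCS and 3D FNHCS (x axis), with SN3593 as filled circles, SN3595 as open triangles and the mean of the 2 libraries as a bar. Most panels step down from 2D FBS to 3D FNHCS, as for Actb at 15301, 5283 and 3603 CPM on average, while Myh10 and Ezr peak in 2D FNHCS and Capg in 3D FNHCS.

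All 15 actomyosin and stress fibre genes rose in 2D FBS against 3D FNHCS, 10 rose in 2D FBS against 2D FNHCS and 5 in 2D FNHCS against 3D FNHCS. Of all tested genes, 19.9%, 5.85% and 8.63% were called higher in the same order. Tropomyosins lie along the filament and set which proteins can bind it. Tpm1 had 6466 and 3689 CPM in 2D FBS, 1022 and 958 CPM in 2D FNHCS and 495 and 526 CPM in 3D FNHCS, and Tpm4 had 2079 and 1979 CPM in 2D FBS, 613 and 646 CPM in 2D FNHCS and 774 and 831 CPM in 3D FNHCS. The 2D FBS libraries stood above all others for both genes, and for Tpm4 the 2D FNHCS libraries were the lowest. Tpm1 rose by 2.36 ± 0.34 (SE, adjusted p = 0.0163) and Tpm4 by 1.69 ± 0.22 (SE, adjusted p = 0.0126) between the media, as edgeR log2 fold changes. The step between flat and matrigel culture gave 0.96 ± 0.33 (SE, adjusted p = 0.0907) for Tpm1 and -0.35 ± 0.21 (SE, adjusted p = 0.282) for Tpm4. Tpm2 spanned the widest range among the tropomyosins, at 545 and 151 CPM in 2D FBS, 9.76 and 5.54 CPM in 2D FNHCS and 3.48 and 0.454 CPM in 3D FNHCS. It rose by 5.51 ± 1.06 (SE, adjusted p = 0.03) in 2D FBS against 2D FNHCS and by 7.46 ± 1.17 (SE, adjusted p = 0.00487) in 2D FBS against 3D FNHCS. For 2D FNHCS against 3D FNHCS Tpm2 was at 1.96 ± 0.96 (SE, adjusted p = 0.198) and was called with the line as a block (adjusted p = 0.0223). Tpm3 was at 0.87 ± 0.27 (SE, adjusted p = 0.0898) between the media and was called there with the block (adjusted p = 0.03), and 40.0% of its 50-base stretches also occur in another gene. Tpm2 is also a muscle tropomyosin, and the smooth muscle markers were likewise highest in the serum libraries. The 7 smooth muscle markers summed to 1929.9 and 367 CPM in 2D FBS, 7.33 and 1.71 CPM in 2D FNHCS and 1.27 and 0.77 CPM in 3D FNHCS, and their part in the tropomyosin levels was not tested.

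Non-muscle myosin II is the motor of stress fibres, with heavy chains from Myh9 and Myh10 and light chains from Myl6, Myl12a and Myl12b. Myh9 had 462 and 231 CPM in 2D FBS, 192 and 262 CPM in 2D FNHCS and 98.1 and 90.9 CPM in 3D FNHCS. Myh10 had 23.5 and 23.3 CPM in 2D FBS, 31.0 and 35.2 CPM in 2D FNHCS and 7.23 and 9.02 CPM in 3D FNHCS. Myh10 was thus highest in both 2D FNHCS libraries, whereas Myh9 in 2D FBS ranged across its 2D FNHCS values. Myh10 rose in 2D FNHCS against 3D FNHCS by 2.03 ± 0.20 (SE, adjusted p = 0.00462), with the lowest adjusted p of the set there, and was called in each fit that left out 1 library. Myh9 was at 1.27 ± 0.36 (SE, adjusted p = 0.0557) there and was called with the line as a block (adjusted p = 0.0481). Between the media neither was called, with 0.61 ± 0.35 (SE, adjusted p = 0.294) for Myh9 and -0.50 ± 0.19 (SE, adjusted p = 0.141) for Myh10. The Myh9 to Myh10 count ratio was 19.7 and 9.94 in 2D FBS, 6.21 and 7.45 in 2D FNHCS, against 13.5 and 10.1 in 3D FNHCS. Of the light chains, Myl6 and Myl12a rose in 2D FBS against 2D FNHCS by 1.55 and 1.45, and Myl12b, at 0.57, was not called (adjusted p = 0.153). Myl12a and Myl12b share 18.8% and 20.7% of their 50-base stretches with each other, so their separate values are uncertain.

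Alpha-actinins and filamin cross-link the filaments. Actn1 had 264 and 132 CPM in 2D FBS, 25.8 and 41.0 CPM in 2D FNHCS and 11.7 and 10.1 CPM in 3D FNHCS. Flna, the gene of filamin A, had 1746 and 1036 CPM in 2D FBS, 361 and 459 CPM in 2D FNHCS and 89.4 and 122 CPM in 3D FNHCS. In both genes the 3 conditions did not overlap, and the 2D FBS library of SN3593 was the highest. Actn1 rose in 2D FBS against 2D FNHCS by 2.57 ± 0.39 (SE, adjusted p = 0.0185) and in 2D FNHCS against 3D FNHCS by 1.61 ± 0.39 (SE, adjusted p = 0.037). Flna rose by 1.76 ± 0.34 (SE, adjusted p = 0.0294) and 1.95 ± 0.34 (SE, adjusted p = 0.0159) in the same comparisons. Actn4, the other widely expressed alpha-actinin gene, was at 1.10 between the media, where it was called, and at 0.54 between flat and matrigel culture, where it was not. The Actn4 to Actn1 count ratio was lowest in the serum libraries, at 5.84 and 11.8 in 2D FBS, 26.3 and 18.8 in 2D FNHCS, against 42.7 and 49.1 in 3D FNHCS. Calponins and transgelins bind along the filament. Cnn2 rose in both steps, by 1.69 in 2D FBS against 2D FNHCS and by 1.33 in 2D FNHCS against 3D FNHCS. Cnn3 rose in 2D FNHCS against 3D FNHCS by 1.197 and was at 0.39 between the media, not called. Tagln2 rose between the media by 1.09 and was at 0.00 between flat and matrigel culture.

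All 9 focal adhesion genes rose in 2D FBS against 3D FNHCS, 3 of them (Vcl, Zyx and Ilk) in 2D FBS against 2D FNHCS and 4 (Tln2, Zyx, Ilk and Tes) in 2D FNHCS against 3D FNHCS. The shares of all tested genes called higher were 19.9%, 5.85% and 8.63%. Talin links integrins to actin, and vinculin strengthens that link under load. Vcl had 684 and 502 CPM in 2D FBS, 101 and 197 CPM in 2D FNHCS and 91.2 and 77.8 CPM in 3D FNHCS. Tln1 had 302 and 252 CPM in 2D FBS, 73.6 and 184 CPM in 2D FNHCS and 47.02 and 62.6 CPM in 3D FNHCS. For both genes the order of the conditions held without overlap, and the 2D FNHCS library of SN3595 stood well above that of SN3593. Vcl rose by 1.99 ± 0.36 (SE, adjusted p = 0.0261) in 2D FBS against 2D FNHCS by edgeR. Tln1 was not called there, at 1.10 ± 0.43 (SE, adjusted p = 0.15), nor in 2D FNHCS against 3D FNHCS, at 1.24 ± 0.43 (SE, adjusted p = 0.0947), and rose by 2.34 ± 0.45 (SE, adjusted p = 0.00903) in 2D FBS against 3D FNHCS. Tln2, the second talin gene, had 12.0 and 12.1 CPM in 2D FBS, 12.8 and 13.1 CPM in 2D FNHCS and 3.51 and 3.91 CPM in 3D FNHCS. Its 4 flat libraries lay close together and above both matrigel libraries. Tln2 rose in 2D FNHCS against 3D FNHCS by 1.80 ± 0.22 (SE, adjusted p = 0.00754) and was at -0.10 ± 0.21 (SE, adjusted p = 0.768) between the media. The Tln1 to Tln2 count ratio was 25.1 and 20.9 in 2D FBS, 5.76 and 14.1 in 2D FNHCS, against 13.4 and 16.02 in 3D FNHCS.

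Zyxin gathers at strained filaments and adhesions. Zyx had 512 and 387 CPM in 2D FBS, 139 and 138 CPM in 2D FNHCS and 57.5 and 63.4 CPM in 3D FNHCS, and its 2 libraries of each FNHCS condition nearly matched. Zyx rose in each comparison, by 1.70 ± 0.21 (SE, adjusted p = 0.012) in 2D FBS against 2D FNHCS and by 1.197 ± 0.21 (SE, adjusted p = 0.0157) in 2D FNHCS against 3D FNHCS, and had the lowest adjusted p of the set in 2D FBS against 3D FNHCS, at 2.89 ± 0.22 (SE, adjusted p = 0.000888). ILK forms a complex with PINCH, from Lims1, and parvin, from Parva. Ilk had 589 and 421 CPM in 2D FBS, 155 and 184 CPM in 2D FNHCS and 80.7 and 73.6 CPM in 3D FNHCS, without overlap. It rose by 1.57 ± 0.24 (SE, adjusted p = 0.0178) between the media and by 1.14 ± 0.23 (SE, adjusted p = 0.0243) between 2D FNHCS and 3D FNHCS. Its partners Lims1 and Parva were not called between the media, at 1.19 ± 0.32 (SE, adjusted p = 0.0688) and 1.05 ± 0.34 (SE, adjusted p = 0.102), although Lims1 was called with the line as a block (adjusted p = 0.0325). Both rose in 2D FBS against 3D FNHCS, by 1.75 and 1.85. Tes, a LIM protein of adhesions, rose in 2D FNHCS against 3D FNHCS by 0.83, and between the media it was called with the block alone (adjusted p = 0.0257). Pxn, the paxillin gene, was not called between the media, at 0.12, -0.15 by the library size and -0.01 by the upper quartile. Pxn was at 0.61 ± 0.21 (SE, adjusted p = 0.096) in 2D FNHCS against 3D FNHCS and was called with the block (adjusted p = 0.0297).

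LIM and PDZ-LIM proteins dock on alpha-actinin and on filaments under tension. Of the 7 genes, 5 rose in 2D FBS against 3D FNHCS, 3 in 2D FBS against 2D FNHCS (Csrp1, Pdlim5 and Fhl2) and 4 in 2D FNHCS against 3D FNHCS (Pdlim5, Pdlim7, Fhl2 and Lima1). Over all tested genes, 19.9%, 5.85% and 8.63% were called higher in the same order. Fhl2, which encodes a LIM-only cofactor, had 135 and 55.4 CPM in 2D FBS, 12.5 and 6.90 CPM in 2D FNHCS and 0.864 and 1.11 CPM in 3D FNHCS. The 3 conditions did not overlap for Fhl2, and in both flat conditions SN3593 was the higher line. It rose by 3.30 ± 0.50 (SE, adjusted p = 0.0185) in 2D FBS against 2D FNHCS and by 3.29 ± 0.54 (SE, adjusted p = 0.0144) in 2D FNHCS against 3D FNHCS. Csrp1 had 2578 and 1179 CPM in 2D FBS, 265 and 270.3 CPM in 2D FNHCS and 164 and 151 CPM in 3D FNHCS. It rose between the media by 2.81 ± 0.40 (SE, adjusted p = 0.016) and was at 0.76 ± 0.37 (SE, adjusted p = 0.199) between flat and matrigel culture. Pdlim5 had 442 and 382 CPM in 2D FBS, 69.9 and 110.0 CPM in 2D FNHCS and 42.99 and 44.0 CPM in 3D FNHCS. It rose by 2.20 ± 0.26 (SE, adjusted p = 0.0114) and 1.05 ± 0.25 (SE, adjusted p = 0.0385) in these 2 comparisons. Lima1, which encodes the filament-stabilising protein EPLIN, had 109.6 and 77.2 CPM in 2D FBS, 133 and 140.1 CPM in 2D FNHCS and 63.6 and 53.1 CPM in 3D FNHCS. Both 2D FNHCS libraries were its highest, and it rose there against 3D FNHCS by 1.23 ± 0.22 (SE, adjusted p = 0.0179). Between the media Lima1 was at -0.55 ± 0.22 (SE, adjusted p = 0.159), not called, and in 2D FBS against 3D FNHCS at 0.68 ± 0.22 (SE, adjusted p = 0.0509), called with the line as a block (adjusted p = 0.0291). Pdlim7 rose in 2D FNHCS against 3D FNHCS by 2.52. Lmo7 and Pdlim1 were uncalled in both steps and are described with the lines.

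Of the 4 branched actin genes, Arpc2, Arpc5 and Cttn rose in 2D FBS against 3D FNHCS, and Arpc2 and Arpc5 rose in 2D FBS against 2D FNHCS. Among all tested genes, 19.9% and 5.85% were called higher in these comparisons. In 2D FNHCS against 3D FNHCS 0 of the 4 were called by edgeR, where 18.4% of all tested genes were, so that a count of 0 in a list this short shows little. Arpc5 had an unadjusted p below 0.05 there. Arpc2, Arpc3 and Arpc5 encode subunits of the Arp2/3 complex, and Cttn encodes cortactin, which holds branches in place. Arpc2 had 656 and 569 CPM in 2D FBS, 212 and 279 CPM in 2D FNHCS and 290.3 and 298 CPM in 3D FNHCS. Both serum libraries lay above the rest, and the 2D FNHCS libraries were the lowest. Arpc2 rose by 1.32 ± 0.22 (SE, adjusted p = 0.0223) between the media and was at -0.26 ± 0.22 (SE, adjusted p = 0.429) between 2D FNHCS and 3D FNHCS. Arpc5 rose by 0.94 ± 0.20 (SE, adjusted p = 0.0397) between the media, and between 2D FNHCS and 3D FNHCS it was at 0.70 ± 0.20 (SE, adjusted p = 0.0612), called with the block (adjusted p = 0.0485). Arpc3 was not called in any comparison, at 0.12 between the media, 0.03 between flat and matrigel culture and 0.15 in 2D FBS against 3D FNHCS. These Arpc3 values turned negative by library size in the first of them (-0.14) and by the upper quartile in the other two (-0.01 in both). Cttn was at 0.37 and 0.43 in the first 2 comparisons. No test of the difference between the branched actin genes and the other roles was made.

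Of the 6 genes for actin turnover and filament tips, 3 rose and Capg fell, leaving out Enah, in 2D FBS against 3D FNHCS, Pfn1 rose between the media, and Gsn rose and Capg fell in 2D FNHCS against 3D FNHCS. The shares of all tested genes in the same order were 19.9%, 5.85% and 8.63% called higher. Called lower were 20.5%, 4.77% and 9.77%. Cofilin, from Cfl1, severs filaments, and profilin, from Pfn1, feeds monomers to their growing ends. Cfl1 had 1577 and 1274 CPM in 2D FBS, 871 and 1172 CPM in 2D FNHCS and 527 and 675 CPM in 3D FNHCS, without overlap between conditions. It rose in 2D FBS against 3D FNHCS by 1.25 ± 0.27 (SE, adjusted p = 0.0145), while neither step passed the threshold, at 0.48 ± 0.27 (SE, adjusted p = 0.285) between the media and 0.76 ± 0.27 (SE, adjusted p = 0.0994) between flat and matrigel culture. Pfn1 was at 0.93 ± 0.21 (SE, adjusted p = 0.0457) between the media. Gelsolin, from Gsn, severs and caps filaments. Gsn had 708 and 1449.5 CPM in 2D FBS, 453 and 977 CPM in 2D FNHCS and 21.5 and 16.6 CPM in 3D FNHCS. All 4 flat libraries stood far above the matrigel libraries, and SN3595 was the higher line in both flat conditions. Gsn rose by 5.23 ± 0.57 (SE, adjusted p = 0.00606) in 2D FNHCS against 3D FNHCS, the largest log2 fold change of the set there, and was called in each fit that left out 1 library. Between the media it was at 0.59 ± 0.48 (SE, adjusted p = 0.441). Capg, the gene of another capping protein of the gelsolin family, went the other way, with 11.1 and 6.74 CPM in 2D FBS, 10.1 and 9.36 CPM in 2D FNHCS and 28.0 and 24.8 CPM in 3D FNHCS. Both matrigel libraries held its highest levels, and Capg fell by 1.44 ± 0.28 (SE, adjusted p = 0.0212) in 2D FNHCS against 3D FNHCS. Capg is also a macrophage gene. The 7 leukocyte markers, mostly Lcp1, summed to 153 and 63.7 CPM in 2D FBS, 57.7 and 39.4 CPM in 2D FNHCS and 262 and 417 CPM in 3D FNHCS. Of these markers, Lcp1, Cd68 and Cd52 were called lower in 2D FNHCS against 3D FNHCS, as Capg was. Cd68 had 2.79 and 1.42 CPM in 2D FBS, 4.87 and 1.48 CPM in 2D FNHCS and 20.5 and 19.7 CPM in 3D FNHCS. Csf1r went the other way and was called higher in 2D FBS against 3D FNHCS. It had 2.27 and 8.05 CPM in 2D FBS, 0.57 and 2.28 CPM in 2D FNHCS and 0.0864 and 0 CPM in 3D FNHCS. Ptprc had 0.316 and 0.127 CPM in 2D FBS, 0.828 and 0.305 CPM in 2D FNHCS and 0.317 and 0.17 CPM in 3D FNHCS. Their part in the Capg levels was not tested. Vasp and Enah encode tip proteins that promote filament growth. Vasp was not called in any comparison. Enah was barely detected, at 1.32 and 0.405 CPM in 2D FBS, 0.0518 and 0.0704 CPM in 2D FNHCS and 0.0576 and 0 CPM in 3D FNHCS, with at most 3 counts in each FNHCS library. Since it passed the filter through 2D FBS alone, its tests are not read.

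Ezrin, moesin and radixin link filaments to the membrane, ezrin above all at the apical face of epithelial cells. Ezr had 587 and 639 CPM in 2D FBS, 796 and 1071 CPM in 2D FNHCS and 386 and 341 CPM in 3D FNHCS. It was highest in both 2D FNHCS libraries and lowest in both 3D FNHCS libraries. Ezr rose by 1.36 ± 0.24 (SE, adjusted p = 0.0161) in 2D FNHCS against 3D FNHCS and was at -0.61 ± 0.23 (SE, adjusted p = 0.147) between the media. Msn rose in 2D FBS against 3D FNHCS by 2.76 ± 0.48 (SE, adjusted p = 0.00676), and its separate steps were at 1.32 ± 0.46 (SE, adjusted p = 0.119) and 1.44 ± 0.46 (SE, adjusted p = 0.0769), not called. The Msn to Ezr count ratio was 4.22 and 4.89 in 2D FBS, 0.785 and 1.52 in 2D FNHCS, against 1.02 and 1.27 in 3D FNHCS, highest in both serum libraries. Rdx ranged from 86.0 to 107 CPM over the 6 libraries and was not called in any comparison.

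The wider machinery was described through 110 further genes in 8 lists, of which 101 were tested. Of these, 3 passed the filter through 2D FBS alone, and the calls below are over the other 98. In 2D FBS against 3D FNHCS, 50 of them were called higher and 6 lower by edgeR, against 19.9% and 20.5% of all tested genes. In 2D FBS against 2D FNHCS it was 26 and 0 (4 of the 101 lower at an unadjusted p below 0.05), against 5.85% and 4.77%. In 2D FNHCS against 3D FNHCS it was 11 and 1, against 8.63% and 9.77%, so that the share called higher was near that of all genes. With the line as a block, 36 were called higher and 3 lower between the media, against 10.3% and 8.41%, and 23 and 4 between flat and matrigel culture, against 14.2% and 14.8%. In the next lists, counts stand against 10.6% of all tested genes called in either direction between the media and 18.4% between 2D FNHCS and 3D FNHCS. A low count in a list this short shows little. The other 6 genes of the Arp2/3 complex had 1 call between the media, Actr3 (log2 fold change 1.12), and 0 between 2D FNHCS and 3D FNHCS. At an unadjusted p below 0.05, 1 was higher and 2 lower between 2D FNHCS and 3D FNHCS. A list of 12 genes held the WASP and WAVE activators of that complex and regulators of its branches, and 11 of them were tested. Of these, Nckap1 (0.91) and Abi1 (0.67) rose between the media, and 0 were called between 2D FNHCS and 3D FNHCS (2 with the block). In 2D FBS against 3D FNHCS, 4 of the 11 were called higher, while Wasf1 (-2.74) and Wipf2 (-1.06) fell. Of the other 6 Arp2/3 genes, 3 were called higher and 0 lower there. The shares of all tested genes called were 19.9% higher and 20.5% lower. Of the 10 formins, which grow unbranched filaments, 7 were tested. Diaph2 (1.73) and Diaph3 (2.51) rose in 2D FNHCS against 3D FNHCS, where 8.63% of all tested genes were called higher. These 2 formins also rose in 2D FBS against 3D FNHCS, while Fmnl3 (-2.43) and Fhod1 (-1.79) fell, against 19.9% and 20.5% of all tested genes.

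Among 25 other focal adhesion genes, 23 were tested, leaving out Tgfb1i1, which passed the filter through 2D FBS alone. Of these 23, 8 rose between the media (13 with the line as a block), Fermt2 by 2.34 and Lims2 by 6.66 among them. A total of 3 of the 23 were called in 2D FNHCS against 3D FNHCS, against 8.63% of all tested genes called higher. Among them Rsu1 rose by 1.52 and Palld by 2.11. RSU1 binds the PINCH partner of ILK, and kindlin-2, from Fermt2, activates integrins. Of 25 other actin filament genes, all tested, 5 rose between the media (8 with the block), Dstn (2.46) and Synpo (1.48) with the lowest adjusted p, and 4 between 2D FNHCS and 3D FNHCS (9 with the block), where these were Synpo (1.77) and Pdlim2 (2.96). The shares of all tested genes called higher in these steps were 5.85% and 8.63%, and 10.3% and 14.2% with the block. Of the 7 genes of MRTF coactivators and serum response partners, 6 were tested. They had 0 calls in either step, against 10.6% and 18.4% of all tested genes, and in a list this short a count of 0 shows little. An unadjusted p below 0.05 was found for 2 between the media and 1 between 2D FNHCS and 3D FNHCS. In 2D FBS against 3D FNHCS 3 of them rose, against 19.9% of all tested genes, with Elk4 (1.001) and Mkl1 (1.16) at the lowest adjusted p.

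Of the 11 muscle-type contractile genes, 8 were tested. Myh11 and Lmod1 passed the filter through 2D FBS alone, so levels are described and no calls against 2D FBS are counted. Acta2, smooth muscle actin, had 838 and 137 CPM in 2D FBS, 2.82 and 0.54 CPM in 2D FNHCS and 0.403 and 0.284 CPM in 3D FNHCS. Myl9 had 945 and 357 CPM in 2D FBS, 8.39 and 7.88 CPM in 2D FNHCS and 0.0864 and 0.199 CPM in 3D FNHCS, and Tagln had 104 and 51.6 CPM in 2D FBS, 1.79 and 1.36 CPM in 2D FNHCS and 0.49 and 0.624 CPM in 3D FNHCS. In 2D FBS the SN3593 library held the higher level of each. Between flat and matrigel culture Myl9 rose by 5.80 ± 0.67 (SE, adjusted p = 0.00673). It was the 1 gene called there of the other 6, against 8.63% of all tested genes called higher (5 with the block, against 14.2%). Not every gene of the list was high in 2D FBS. Des had 0.172 and 0 CPM and Actc1 0.144 and 0 CPM in 2D FBS. Smtn had 16.8 and 5.06 CPM in 2D FBS, 6.06 and 3.10 CPM in 2D FNHCS and 3.71 and 5.36 CPM in 3D FNHCS. Of the 50-base stretches of Actb 0% occur in Acta2, and of those of Actg1 0.296%. The 10 fibroblast markers summed to 1.01 and 1.52 CPM in 2D FBS, 1.61 and 1.41 CPM in 2D FNHCS and 0.778 and 0.851 CPM in 3D FNHCS, with Lum, Dpt and Fbln1 at 0 counts in both serum libraries. The 6 epithelial markers summed to 20968 and 15373 CPM in 2D FBS, 7779 and 7758 CPM in 2D FNHCS and 4656 and 3332 CPM in 3D FNHCS. Krt8 and Krt18 made up 77.9% and 53.5% of that sum in 2D FBS, 58.8% and 27.8% in 2D FNHCS, against 68.3% and 54.4% in 3D FNHCS. Epcam (-0.86) and Nkx2-1 (-0.99) went the other way in 2D FBS against 3D FNHCS, not called by edgeR (adjusted p = 0.079 and 0.0705) but called lower with the line as a block (adjusted p = 0.0289 and 0.0275). Endothelial markers summed to at most 1.84 CPM in every library. The 5 mesothelial markers, nearly all Msln, summed to 553 and 2143 CPM in 2D FBS, 7.02 and 307 CPM in 2D FNHCS and 4.92 and 12.2 CPM in 3D FNHCS, and their part in the actin gene levels was not tested. The 10 immediate early genes summed to 2664 and 2586 CPM in 2D FBS, 3199.8 and 2293 CPM in 2D FNHCS and 8693 and 7742 CPM in 3D FNHCS. They did not all follow the sum. Dusp1 was called higher in 2D FBS against 3D FNHCS (1.02) and against 2D FNHCS (1.65). Nr4a1 was called higher in 2D FBS against 2D FNHCS (1.29). Atf3 was highest in both 2D FBS libraries and was not called in any comparison.

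Between the lines, 0 of the 47 genes were called by edgeR, against 0.00694% of all tested genes, and 5 had an unadjusted p below 0.05. Limma-voom also called 0, and DESeq2 called Tpm2, lower in SN3595. The 5 were Tpm2, at -1.71 ± 0.37 (SE, adjusted p = 0.161) in SN3595 against SN3593, and Tpm3, Pxn, Pdlim7 and Fhl2, at 0.38, 0.29, -0.79 and -0.78. They were chosen by their p. The direction of the line difference changed with the condition. SN3595 was higher than SN3593 for 17 of the 47 genes in 2D FBS, 39 in 2D FNHCS and 26 in 3D FNHCS, against 49.7%, 51.7% and 53.4% of all tested genes. The median difference, SN3595 minus SN3593 on the log2 scale, was -0.23 in 2D FBS, 0.35 in 2D FNHCS and 0.09 in 3D FNHCS. The AT1 marker sum was higher in SN3595 in 2D FNHCS (13436 against 5268 CPM) and in 2D FBS (22106 against 16004 CPM). It was lower in SN3595 in 3D FNHCS (2968 against 3367 CPM). In 2D FBS, by contrast, 30 of the 47 genes were lower in SN3595. The part of the AT1 markers in these line differences was not tested.

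Within each line, the change in 2D FBS against 2D FNHCS was more positive in SN3593 for 46 of the 47 genes, against 50.2% of all tested genes. The change in 2D FNHCS against 3D FNHCS was more positive in SN3595 for 37 of the 47, against 47.1% of all tested genes. Both counts use the same 2D FNHCS libraries and are not independent, and with 1 library per line and condition the difference between the lines was not tested. For 2D FBS against 3D FNHCS the change was more positive in SN3593 for 35 genes, against 52.5% of all tested genes. Both lines changed in the same direction all the same for most genes. Between the media 39 genes were higher and 4 lower in both lines, between flat and matrigel culture 37 and 4, and in 2D FBS against 3D FNHCS 44 and 1. Over all tested genes, 5242 were higher and 5846 lower in both lines between the media, 5908 and 5759 between flat and matrigel culture, and 5967 and 6322 in 2D FBS against 3D FNHCS. Lmo7, a LIM protein of cell junctions, and Pdlim1 moved in opposite directions in the lines by 0.5 or more. Lmo7 had 410.5 and 995 CPM in 2D FBS, 42.4 and 289.8 CPM in 2D FNHCS and 77.0 and 76.5 CPM in 3D FNHCS, and its 2D FNHCS library of SN3593 was the lowest of all 6 while that of SN3595 was above both 3D FNHCS libraries. Pdlim1 had 25.7 and 5.90 CPM in 2D FBS, 7.51 and 8.89 CPM in 2D FNHCS and 6.02 and 5.42 CPM in 3D FNHCS, with the 2D FBS library of SN3593 alone at a high level.

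**Figure D4:**
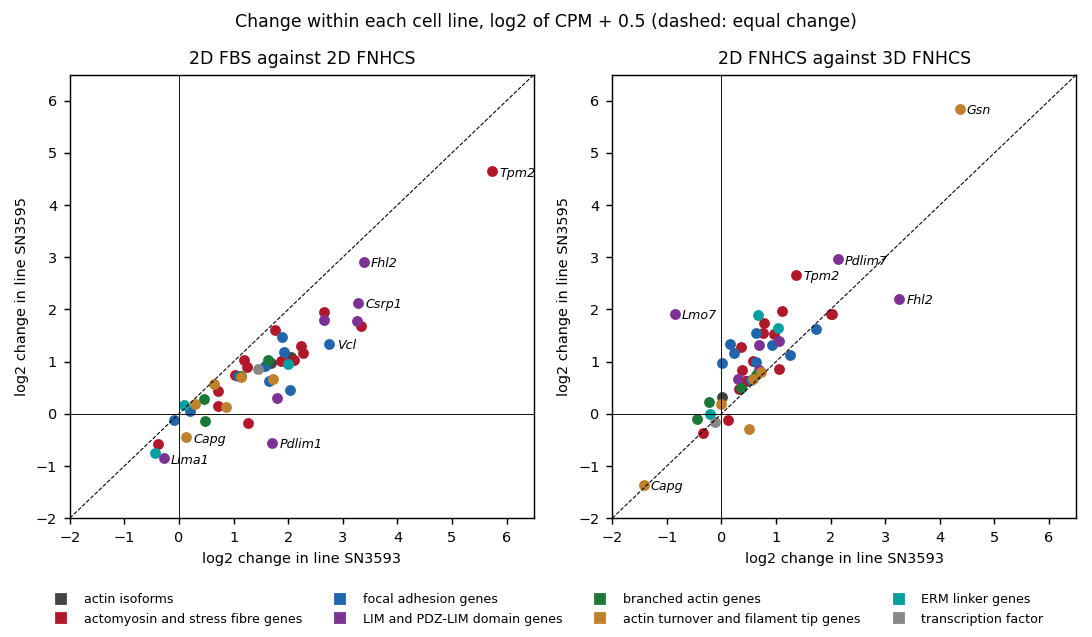
Log2 change of CPM + 0.5 in SN3593 (x axis) and in SN3595 (y axis) for each of the 47 genes, coloured by role, in 2D FBS against 2D FNHCS on the left and 2D FNHCS against 3D FNHCS on the right, with equal change as a dashed line. On the left 46 genes lie below the line, and on the right 37 lie above it, with Lmo7 far to the left at -0.85 and 1.91.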

How the data were processed

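Per the labels, polyA RNA was extracted with a Qiagen RNeasy kit, and the 6 libraries were made by NEB Ultra II. The authors deposited 1 table of expected counts, in which reads that match several genes are divided among them, so that values can be fractions of a read. Bowtie 1.2.3, RSEM 1.3.1 and the genome build mm9 are named in the submitters' processing notes, while no source used here gives the annotation, the options or any use of strand. Expected counts were rounded to whole numbers and tested with edgeR 4.0.16 (R 4.3.3): TMM scaling, the default filter by group (14416 of 23224 genes kept), 1 term per group over all 6 libraries (3 residual degrees of freedom), the quasi-likelihood test and Benjamini-Hochberg adjustment over all tested genes at 0.05. The SE was taken as the size of the log2 fold change over the root of the F statistic. The comparison of lines kept a term for the condition. Changes within a line use CPM + 0.5.

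Alternatives were scaling by library size, RLE or the upper quartile, no filter, DESeq2 1.42.0, limma-voom (limma 3.58.1), the cell line as a replicate block, and leaving out each library. The main fit of the conditions had no term for the line. Same-line libraries were treated as pairs only in the block fits and in the changes within a line, because they come from 1 named line. The SN3595 minus SN3593 difference over 14416 genes had correlations of 0.383 between 2D FBS and 2D FNHCS, 0.247 between 2D FBS and 3D FNHCS and 0.42 between 2D FNHCS and 3D FNHCS. The labels name the lines but not the animals behind them, so the p-values reflect the spread between these libraries, part of which may be technical. Libraries of 1 condition differed by 142 (2D FBS), 172 (2D FNHCS) and 162 (3D FNHCS) chi-square units per degree of freedom, and all were kept.

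The 47 genes and the other lists were chosen with earlier results of these data known. All 110 companion and 72 marker genes had a row, 6 companions under an older symbol. Values in every library are given for 12 fixed genes and for the 8 called genes with the lowest adjusted p in each direction of each comparison of conditions, with further genes by fold change. Tpm2, Enah, Lmo7 and Pdlim1 were given in full after their values were seen. Arpc5, Tgfb1i1, Csf1r, Cd68, Cd52, single AT1 markers, single immediate early genes and the muscle-type genes were also named after their values were seen. Of companions, the 2 called with the lowest adjusted p each way per list are eligible for naming. One companion list enters the total over all companions and is not reported here by itself. Promoter windows came from RefSeq (GRCm38.p6), whose build differs from that of the counts, and 42 of the 47 genes matched by symbol. Stretches of 50 bases shared between transcripts were counted in GENCODE vM21.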

Additional observations from a re-analysis of the deposited data

Results flagged for a closer look

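Lmo7 and Pdlim1 were singled out because the 2 lines moved in opposite directions by at least 0.5 on the log2 scale. In 2D FNHCS against 3D FNHCS, Lmo7 was at 1.91 in SN3595 and at -0.85 in SN3593, a difference of 2.77. In 2D FBS against 2D FNHCS, Pdlim1 was at -0.55 in SN3595 and at 1.71 in SN3593, a difference of -2.26. With 1 library per line and condition, neither difference was tested. Of the 50-base stretches of the Pdlim1 transcripts, 19.6% also occur in another gene.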

How the results depend on the processing

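DESeq2 called 27 of the 47 genes higher in 2D FNHCS against 3D FNHCS, against 15 by edgeR (14.5% and 8.63% of all genes called higher), 30 against 20 in 2D FBS against 2D FNHCS (12.3% and 5.85%), and 1 gene lower between the lines, against 0. Library size scaling called 2 genes lower in 2D FBS against 2D FNHCS, against 0, and put the branched actin median there at 0.38, against 0.65. Over all genes, it called 625 higher and 1474 lower in that comparison, upper-quartile scaling 701 and 915 and TMM 843 and 688; in 2D FNHCS against 3D FNHCS library size scaling called 1885 and 1137 and TMM 1244 and 1408. The replicate block by cell line gave 42, 25 and 19 genes higher, and beside the gains printed with each gene it changed no other call of the 47 genes. Leaving out 1 library at a time gave 25 to 41 genes called higher in 2D FBS against 3D FNHCS, 1 to 19 in 2D FBS against 2D FNHCS and 3 to 19 between flat and matrigel culture, where 0 to 1 were lower.

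Medians under the same omissions ran, in 2D FBS against 2D FNHCS, from 0.66 to 1.73 (focal adhesion), 1.28 to 2.59 (LIM and PDZ-LIM) and 0.33 to 0.91 (turnover and tips), and in 2D FNHCS against 3D FNHCS from 0.39 to 1.22 (focal adhesion), -0.0873 to 0.46 (branched actin) and 0.56 to 1.56 (ERM). The single genes that changed sign were not called in the comparison concerned. By scaling to library size, in 2D FBS against 2D FNHCS, Pxn was at -0.15, Arpc3 at -0.14, Vasp at -0.0319 and Rdx at -0.14; in 2D FBS against 3D FNHCS, Rdx at -0.0837; and in 2D FNHCS against 3D FNHCS, Rdx at 0.0576 and Srf at 0.0197. By the upper quartile, Pxn was at -0.0148 and Rdx at -0.0038 in 2D FBS against 2D FNHCS, Arpc3 at -0.0108 and Rdx at -0.134 in 2D FBS against 3D FNHCS, and Tagln2 at -0.0232 and Arpc3 at -0.0118 in 2D FNHCS against 3D FNHCS. There Tagln2 was also at -0.0414 with no filter and -0.0064 with the block, and Arpc3 at -0.0061 with no filter and -0.0091 by limma-voom.

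Omitting libraries, the log2 fold change in 2D FBS against 2D FNHCS ran from -0.0653 to 0.35 for Pxn, -0.46 to 1.67 for Pdlim1, -0.18 to 0.53 for Arpc3 and -0.51 to 0.22 for Capg, and in 2D FBS against 3D FNHCS from -0.10 to 0.15 for Rdx. In 2D FNHCS against 3D FNHCS it ran from -0.19 to 0.48 for Actg1, -0.083 to 0.0445 for Tagln2, -0.0138 to 0.97 for Lims1, -0.89 to 1.92 for Lmo7, -0.38 to 0.33 for Arpc3 and -0.19 to 0.37 for Vasp. The cause of these shifts was not tested. Each condition has 2 libraries; Enah alone lay near the floor of 3 counts per library.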
